A study of Sus scrofa with 50 samples.

Results

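The genes described here are the HOX genes, followed through 5 tissues of the Korean minipig (Sus scrofa). They were taken as every Swiss-Prot entry named HXA, HXB, HXC or HXD with a number that was the best protein match (BLASTX E value of at most 1e-10) of an assembled transcript, which gave 28 of the 14413 genes measured. RNA from backfat, loin, tenderloin, lymph and brain, as the labels name them, was sequenced from 10 animals. Of these, 5 (S0235, S0242, S0276, S0309 and S0326) were of the ET type and 5 (S0349, S0355, S0377, S0384 and S0385) of the L type. The labels give no sex, age, treatment or other feature of the animals, and no label says what the letters ET and L stand for. Each tissue and type is 1 group of 5 animals, and the same animals gave every tissue. The members' rule leaves out 5 libraries (S0355 backfat, loin and brain, and S0235 lymph and brain) and shows 1 apart (S0235 loin), which leaves 44: 9 of backfat, 8 of loin, 10 of tenderloin, 9 of lymph and 8 of brain. Levels are TPM, a share of transcripts that is corrected for length and sums to 1000000 in each library, so genes can be compared with each other. The number of reads per library is unknown, and precision rests on the spread between libraries.

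HOX genes encode homeodomain transcription factors that give cells their address along the head-to-tail axis of the embryo. Mammals carry them in 4 clusters, A to D, with members numbered by 13 paralogue groups. Low numbers are switched on early and towards the head, and high numbers later and towards the tail. Muscle, fat and connective tissue of the adult body keep part of this pattern, so the set of HOX genes in a piece of tissue depends on where along the body it was cut. The forebrain and the pituitary lie in front of the region that the clusters pattern.

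The 28 members covered 8 of 11 genes of cluster A, 8 of 10 of cluster B, 6 of 9 of cluster C and 6 of 9 of cluster D. No entry was found for HOXA5, HOXA11, HOXA13, HOXB1, HOXB13, HOXC5, HOXC12, HOXC13, HOXD11, HOXD12 and HOXD13, so these are not measured here under their own name. In the RefSeq annotation of the pig build Sscrofa11.1 the annotated genes of cluster A lie on chromosome 18 from 45373340 to 45480306, those of B on chromosome 12 from 24784953 to 24950661, those of C on chromosome 5 from 19151096 to 19268267 and those of D on chromosome 15 from 81893997 to 81990026. A position was found there for 25 of the 28 members, and the deposited files themselves hold no coordinates.

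The members rested on 50 transcripts, 1 to 3 per gene, and 12 genes had a single one. Their identity to the matched protein was 75.8% to 100%, with a median of 97.4%. Of these transcripts 24 came from the assembly of L kidney, 25 from assemblies of backfat, loin or tenderloin, 1 from L brain and none from a lymph assembly. Neighbouring HOX genes were in part joined in 1 transcript. The only transcript of HOXA3 and the main one of HOXA6 also held a HOXA5 peptide, 1 of the HOXB6 transcripts held a HOXB5 peptide, and the only HOXD3 transcript held a part of HOXD4. The levels of these 4 genes can therefore include RNA of a neighbour. A further 5 transcripts had no predicted HOX peptide, among them the brain transcript that matched the first 75 residues of HOXB8.

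The labels were checked against marker genes. Adipocyte markers (ADIPOQ, PLIN1, CIDEC and FABP4) summed to 478 to 17711 TPM in backfat and to at most 87.7 in any other tissue. Muscle markers (CKM and ACTA1) summed to 23010 to 61208 in loin and tenderloin together and to at most 136 elsewhere, and lymph node markers (CD3E, CD79A, CCL21 and CR2) to 2265 to 5754 in lymph and at most 123 elsewhere. The 8 libraries labelled brain held 20971 to 82994 TPM of the anterior pituitary hormones POMC, PRL and CGA, but only 339 to 743 of MBP, GFAP and SNAP25. The 2 left-out brain libraries, S0235 and S0355, were the reverse, with 18.7 and 26.2 of the pituitary set and 35743 and 53106 of the brain set. Brain is used below as the label of those 8 libraries, whose content goes against it. By their HOX profile, 43 of the 44 libraries lay nearest to the mean of their own tissue. The exception was the tenderloin library of S0349, which held 39884 TPM of the muscle markers and is described with the muscles.

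HOX RNA was abundant in loin, backfat and tenderloin, low in lymph and lowest in brain. The summed level of all members was 328.5 ± 38.6 TPM (SD, n = 8) in loin, 250.9 ± 69.3 (n = 9) in backfat, 179.2 ± 55.5 (n = 10) in tenderloin, 28.6 ± 11.8 (n = 9) in lymph and 3.8 ± 2.1 (n = 8) in brain. A mean of at least 1 TPM was reached by 23 members in backfat, 19 in tenderloin, 18 in loin, 11 in lymph and 1 in brain. HOXA2 and HOXB5 were among those that stayed under 1 TPM on average in every tissue. Of the 28 genes, 16 had their highest mean in backfat, 8 in loin, 3 in tenderloin (HOXA4, HOXA10 and HOXC11), 1 in brain (HOXB8) and none in lymph. The HOXB8 level in brain came mainly from a transcript without a predicted HOX peptide. These are bulk tissues, so a lower level may mean fewer cells of a type or less RNA per cell, which cannot be told apart.

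**Figure D1:**
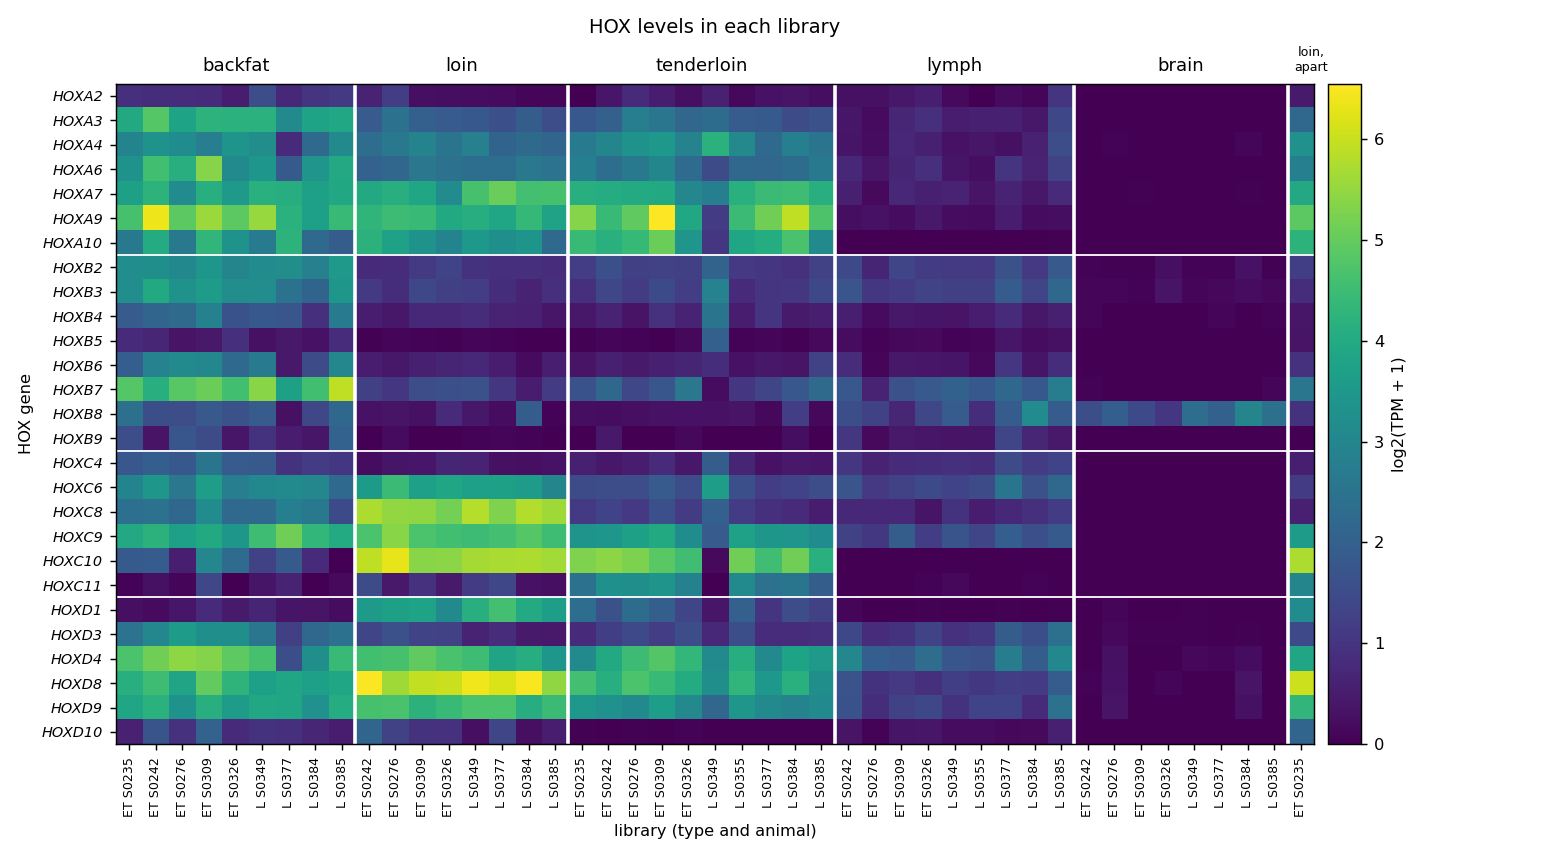
Heat map of log2(TPM + 1) for HOX genes (rows, by cluster and number) in the 44 libraries used (columns, by tissue, type and animal) and in the loin library of S0235, shown apart at the right. The bright blocks include the middle C and D genes in loin, HOXB7 in backfat, and HOXA9 in backfat and in tenderloin except S0349. Brain is dark except for HOXB8.

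The 4 clusters took different parts in each tissue. Cluster B made up 23.4 ± 7.2% of the HOX TPM in backfat (n = 9) but 1.6 ± 0.5% in loin (n = 8) and 5.5 ± 5.5% in tenderloin (n = 10). Cluster A led in tenderloin, with 43.8 ± 8.8%, and in backfat, with 37.2 ± 5.9%. Clusters C and D led in loin, with 42.2 ± 4.3% and 38.5 ± 4.4%. In lymph the largest part was cluster B with 35.3 ± 6.3%, then D with 32.1 ± 6.3%, and cluster A made up 10.8 ± 3.7%. Transcripts without a predicted HOX peptide are counted in these parts, with lymph means of 2.22 TPM for HOXB8, 1.30 for HOXD9 and 1.29 for HOXC6. The lead of cluster B, a mean sum of 10.1 TPM against 9.25 for D, depends on counting that of HOXB8. The highest-numbered gene of cluster A with at least 1 TPM was HOXA10 in all 27 libraries of backfat, loin and tenderloin, while 8 of 9 lymph libraries and all 8 brain libraries had no cluster A gene at that level.

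**Figure D2:**
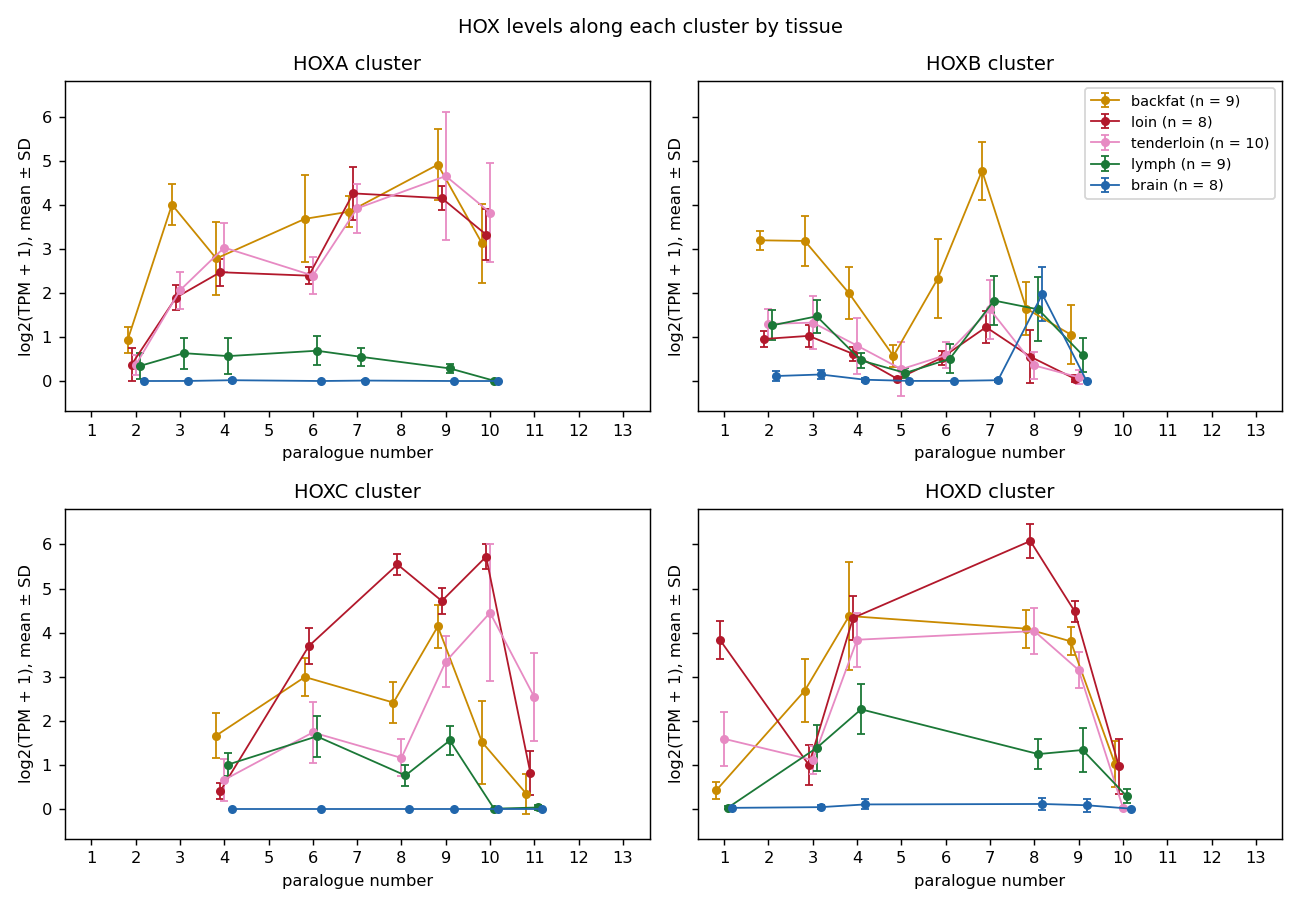
Mean ± SD of log2(TPM + 1) over the libraries of each tissue (colours, n in the legend) along the paralogue number of clusters A to D. Backfat stands above the muscles along most of cluster B, and loin above the other tissues at HOXC8, HOXC10, HOXD1 and HOXD8. Genes without a Swiss-Prot entry, or not reported here, have no point.

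The most abundant genes in backfat were HOXA9 with 11.9 to 81.8 TPM (median 28.8, n = 9), HOXB7 with 12.2 to 59.2 (27.1), HOXD4 with 1.98 to 42.2 (24.8), HOXC9 with 9.98 to 33.8 (15.0) and HOXD8 with 12 to 30.5 (13.4). In loin they were HOXD8 with 43.1 to 90.1 TPM (median 68.0, n = 8), HOXC10 with 40.9 to 77.5 (50.9), HOXC8 with 35.5 to 55.1 (45.9), HOXC9 with 21.4 to 40.8 (24.0) and HOXD9 with 15.9 to 24.8 (22.6). In tenderloin they were HOXA9 with 1.23 to 92.6 TPM (median 27.5, n = 10), HOXC10 with 0.13 to 41.8 (31.2), HOXD8 with 8.53 to 25 (16.6), HOXA10 with 1.06 to 33.0 (16.2) and HOXA7 with 6.15 to 21.8 (15.8). For HOXA9, HOXC10 and HOXA10 the low end in tenderloin is S0349 alone, whereas for HOXD8 and HOXA7 another library was nearly as low (8.61 in S0385 and 7.12 in S0326). In lymph the leading genes were HOXD4 with 2.09 to 7.31 TPM (median 2.87, n = 9), HOXB7 with 0.57 to 5.69 (2.50), HOXB8 with 0.62 to 7.93 (1.98), HOXC6 with 1.14 to 4.81 (1.88) and HOXC9 with 1.1 to 2.87 (2.02). In brain, after HOXB8, came HOXB3, HOXB2, HOXD8 and HOXD4, with means of 0.07 to 0.11 TPM.

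In several paralogue groups, among them 3, 6, 7, 8, 9 and 10, the gene with the largest share of the RNA was not the same in every tissue. In group 6, HOXA6 led in backfat (55.1%) and tenderloin (56.8%), and HOXC6 in loin (72.4%) and lymph (67.5%). In group 9, HOXA9 led in backfat (51.3%) and tenderloin (65.3%), and HOXC9 in loin (40.0%) and lymph (44.8%). In group 3, HOXA3 led in backfat, loin and tenderloin, and HOXB3 in lymph (43.9%). In group 7, HOXB7 held 67.9% of the group's mean TPM in backfat and 85.3% in lymph, whereas HOXA7 held 93.3% in loin and 86.4% in tenderloin. In group 10, whose members set the lumbar pattern of the vertebral column by suppressing ribs, HOXA10 held 72.2% in backfat and HOXC10 83.0% in loin and 62.8% in tenderloin. In group 8, HOXD8 led with 70.8% in backfat, 59.5% in loin and 91.0% in tenderloin, and HOXC8 added 40.0% in loin but 7.3% in tenderloin. HOXB8 led that group in lymph, with 54.0%, and in brain, with 97.5%. Both leads depend on a transcript without a predicted HOX peptide. The other HOXB8 transcript averaged 0.28 TPM in lymph and 0.06 in brain, under HOXD8 with 1.43 and 0.08. Group 4 was led by HOXD4 in backfat, loin, tenderloin and lymph, with 60.6% to 78.5%.

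The libraries of a tissue also differed among themselves. Over the members with a mean of at least 1 TPM, the coefficient of variation (SD over mean) had a median of 30.8% in loin (18 members, 16.1% to 92.2%), 45.8% in tenderloin (19 members, 27.9% to 107%), 49.2% in lymph (11 members) and 50.6% in backfat (23 members, 16.8% to 91.4%). In backfat HOXB2 varied least, from 6.16 to 10.6 TPM. Without the library of S0349, an alternative added after seeing the data, the tenderloin median was 31.6% and the range 19.0% to 66.1%. In loin HOXD9 and HOXC8 varied least, by 16.1% and 16.2%.

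The first comparison set the 2 muscles against each other. Loin is a muscle along the back and tenderloin a muscle under the lumbar spine, so both belong to the trunk. Loin had more RNA of HOXC6, HOXC8, HOXC9, HOXC10, HOXD1, HOXD8 and HOXD9, and tenderloin had more of HOXA4 and HOXC11. Of 19 members tested (mean TPM of at least 1), 9 passed limma's test at an adjusted p under 0.05 on log2(TPM + 1), where 36.1% of the 10764 genes tested were called. In this count 7 were higher in loin, against 19.9% of all genes, and 2 lower, against 16.2%. The median log2 difference of the members was 0.00, beside 0.05 over all genes. Overlap of ranges and counts of animals are given below for the members only. Neither was counted over all genes, so how common they are there is not known.

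HOXC8, which patterns the lower thorax, showed the largest difference. Its level was 52.2, 43.6, 42.8 and 35.5 TPM in the ET loin libraries of S0242, S0276, S0309 and S0326. The L loin libraries of S0349, S0377, S0384 and S0385 had 55.1, 38.0, 54.7 and 48.3. In tenderloin the range was 0.43 to 3.01 TPM (median 1.18, n = 10). The groups did not overlap, the ratio of the means was 35.2, and the log2 difference was 4.39 ± 0.17 (SE, adjusted p = 6.4e-13). HOXC8 was higher in loin in 8 of 8 animals with both muscles.

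Its neighbours in cluster C differed less. HOXC6, a thoracic gene, ranged from 6.86 to 21.1 TPM in loin (median 12) and from 1.26 to 11.5 in tenderloin (median 1.93), with a log2 difference of 1.96 ± 0.26 (adjusted p = 2.1e-05). The overlap came from the tenderloin library of S0349 alone, since the other 9 reached 2.69 at most. HOXC9 had 21.4 to 40.8 TPM in loin and 2.66 to 14.6 in tenderloin, with no overlap and a difference of 1.38 ± 0.20 (adjusted p = 4.9e-05). HOXC10 had 40.9 to 77.5 TPM in loin and 0.13 to 41.8 in tenderloin, and the difference was 1.27 ± 0.48 (adjusted p = 0.044). It was higher in loin in 8 of 8 animals, but S0349 decides its size. Without that tenderloin library the difference was 0.81 (adjusted p = 0.0013). With it kept, leaving out any of S0242, S0276, S0309, S0326, S0377, S0384 and S0385 raised the adjusted p to between 0.055 and 0.087. The call was also lost with a pseudocount of 0.1 TPM (limma adjusted p = 0.093) and without the filter on low values (0.065). With 1 transcript per gene the adjusted p was 0.058, and with all libraries under their labels 0.39.

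HOXC11, a gene of the sacral region, went the other way. It lay at 0.21 to 1.84 TPM in loin (median 0.65, n = 8) and at 0 to 9.56 in tenderloin (median 5.58, n = 10). The single tenderloin library at 0 was that of S0349, and the next lowest had 2.83, above every loin library. The log2 difference was -1.72 ± 0.33 (adjusted p = 5.5e-04), and tenderloin was higher in 7 of 8 animals. Along cluster C the muscles thus crossed between HOXC10, higher in loin, and HOXC11, higher in tenderloin.

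In cluster D, HOXD8 had 43.1 to 90.1 TPM in loin and 8.53 to 25 in tenderloin, a difference of 2.05 ± 0.20 (adjusted p = 1.1e-06). HOXD9, which also acts in limb buds, had 15.9 to 24.8 against 3.44 to 11.8 TPM, a difference of 1.33 ± 0.16 (adjusted p = 7.4e-06). HOXD1, known from sensory neurons, had 7.80 to 23.3 against 0.315 to 4.11 TPM, a difference of 2.24 ± 0.24 (adjusted p = 2.7e-06). None of these 3 genes overlapped between the muscles, and each was higher in loin in 8 of 8 animals. HOXD10 lay under the limit on mean TPM. It had 0.20 to 3.36 TPM in loin and 0 to 0.04 in tenderloin, again without overlap, and with the limit lowered to 0.1 its difference was 0.94 (adjusted p = 3.8e-04).

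**Figure D3:**
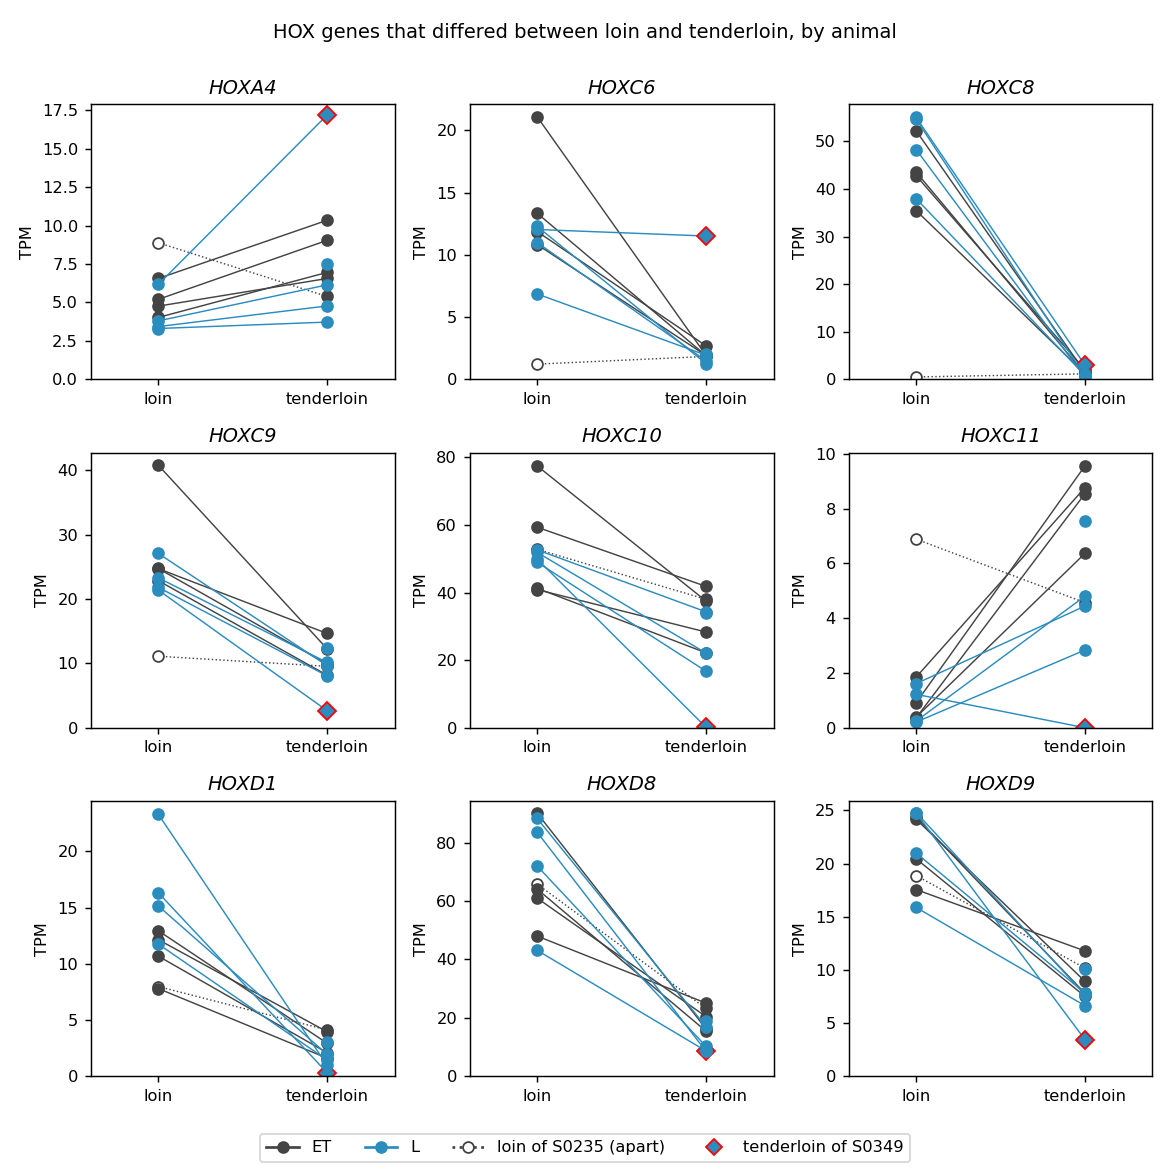
TPM of the 9 HOX genes called between loin and tenderloin. Each point is 1 library and each line joins the muscles of 1 animal (ET dark, L blue). The open point is the loin library of S0235, shown apart, and the red-edged diamond is the tenderloin library of S0349. HOXC8, HOXC9, HOXD1, HOXD8 and HOXD9 separate the muscles fully, while HOXC11 is higher in tenderloin except in S0349.

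Of the members of clusters A and B tested, only HOXA4 was called between the muscles. HOXA4, a gene of the neck region, had 3.31 to 6.56 TPM in loin and 3.72 to 17.2 in tenderloin, and was higher in tenderloin in 8 of 8 animals (-0.56 ± 0.21, adjusted p = 0.040). The ranges overlapped, and this call was lost when any of S0242, S0276, S0309, S0326, S0355, S0384 and S0385 was left out (adjusted p of 0.054 to 0.082). The HOXA4 call was also lost without the filter on low values (limma adjusted p = 0.055) and with 1 transcript per gene (0.051). With the loin library of S0235 put back the adjusted p was 0.076, and with all libraries under their labels 0.49. HOXA9 and HOXA10 differed by -0.50 ± 0.46 (adjusted p = 0.41) and -0.50 ± 0.37 (adjusted p = 0.30). Without the tenderloin library of S0349 they passed, at -0.88 (adjusted p = 0.018) and -0.79 (adjusted p = 0.019), as did HOXB7 at -0.54 (adjusted p = 0.038), all 3 higher in tenderloin, and the count rose to 12. With the animal as a block, HOXB2 (-0.38, adjusted p = 0.039) and HOXD4 (0.44, adjusted p = 0.029) were called too. The other members of these clusters were called in none of these 3 fits. Among the markers of other cells, the endothelial sum was 40.1 to 65.0 TPM in loin and 42.9 to 131 in tenderloin, and that of smooth muscle 22.2 to 67.0 and 35.9 to 142. Their part in the differences between the muscles was not tested.

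The 2 muscle libraries that stood apart in HOX RNA did so in different ways. In the tenderloin library of S0349, 12 members lay below and 8 above the range of the other 9 tenderloin libraries. How many of all genes lay outside that range in this library was not counted. HOXC10 was at 0.13 TPM there against 16.7 to 41.8, HOXA9 at 1.23 against 13.9 to 92.6 and HOXA10 at 1.06 against 7.68 to 33.0. HOXC6 was at 11.5 TPM against 1.26 to 2.69, and HOXB5 at 3.01 against at most 0.11. In the loin library of S0235, left out of the tests, HOXC8 was at 0.49 TPM, in the tenderloin range, and HOXC6 at 1.22, under the lowest tenderloin library (1.26). HOXC11 was at 6.88, above every other loin library. HOXC9 lay under every used loin library and inside the tenderloin range. HOXC10 (52.8), HOXD8 (65.8) and HOXD1 (7.98) were at loin levels in the same library. The HOX profile of this loin library lay nearest to the tenderloin mean. Its mean absolute difference on log2(TPM + 1) was 0.54 from tenderloin and 0.74 from loin. Both libraries held muscle markers at the level of the other muscle libraries (39884 and 46302 TPM). What set their HOX levels apart was not tested.

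The second comparison set backfat against the mean of the 2 muscles. HOXB7, HOXB2, HOXA3 and HOXB3 were the genes furthest above the muscles, and HOXC10, HOXD1 and HOXC11 those furthest below. Of 23 members tested 15 were called, 10 higher and 5 lower in backfat. Of all 11868 genes 79.4% were called, with 58.9% higher and 20.5% lower. The median log2 difference was 0.27 for the members and 0.63 for all genes. When the libraries were rescaled so that the median gene did not shift (median-ratio scaling, median -0.04), 21 members were tested, without HOXB8 and HOXC4, and the calls became 8 higher and 10 lower, beside 37.6% and 40.1% of all genes. No member called in the first fit changed direction under that scaling.

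HOXB7 differed most among the genes that were higher. It had 12.2 to 59.2 TPM in backfat (median 27.1, n = 9), 0.44 to 2.08 in loin and 0.168 to 5.0 in tenderloin, without overlap, and the log2 difference was 3.34 ± 0.23 (adjusted p = 2.1e-13). HOXB2, a hindbrain gene in the embryo, had 6.16 to 10.6 TPM in backfat against at most 3.27 in the muscles (2.07 ± 0.12, adjusted p = 5.5e-15). HOXA3, which patterns neck and pharynx, had 7.56 to 27.5 against at most 5.99 TPM (2.01 ± 0.15, adjusted p = 5.2e-13). Both were higher in backfat than in either muscle in 8 of 8 animals. HOXB3 (1.99 ± 0.20), HOXB6 (1.75 ± 0.22), HOXD3 (1.6 ± 0.16) and HOXB4 (1.28 ± 0.21) were higher as well, with adjusted p from 6.5e-10 to 3.5e-06. HOXA6, HOXB8 and HOXC4 made up the rest of those higher, by 1.12 to 1.26.

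HOXC10, HOXD1 and HOXC11 were the genes furthest below the muscles. HOXC10 had 0 to 7.23 TPM in backfat (median 2.60) beside medians of 50.9 in loin and 31.2 in tenderloin, a difference of -3.62 ± 0.39 (adjusted p = 2.3e-09). HOXD1 had 0.145 to 0.716 TPM in backfat, under every loin library, and differed by -2.30 ± 0.19 (adjusted p = 6.0e-12). HOXC11 differed by -1.36 ± 0.27 (adjusted p = 4.5e-05), and HOXD8 and HOXC8 by -0.99 and -0.94. HOXC11 averaged 0.33 TPM in backfat, 0.85 in loin and 5.74 in tenderloin, and its ranges in backfat and loin overlapped. The call of HOXC8 was lost with the loin library of S0235 put back (-0.66, adjusted p = 0.12) and with all libraries under their labels (-0.31, adjusted p = 0.52). HOXD8 averaged 16.8 TPM in backfat and 16.3 in tenderloin, and HOXC8 4.56 in backfat between 1.32 in tenderloin and 46.3 in loin. Not called were HOXA4, HOXA7, HOXA9, HOXA10, HOXC6, HOXC9, HOXD4 and HOXD9. Under median-ratio scaling HOXA4 and HOXC9 changed sign and were called lower, at -0.62 and -0.59, and HOXA7, HOXA10 and HOXD9 were called lower, at -0.92, -1.15 and -0.72.

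Markers of other cells moved with this comparison. Fibroblast markers (PDGFRA, DCN, COL1A1 and COL3A1) summed to 919 to 23189 TPM in backfat, 111 to 687 in loin and 155 to 588 in tenderloin. Endothelial markers (PECAM1, VWF and CDH5) summed to 28.8 to 1358 TPM in backfat, 40.1 to 65.0 in loin and 42.9 to 131 in tenderloin. The backfat library of S0377 had the lowest adipocyte and endothelial sums of that tissue, 478 and 28.8 TPM, and the HOX profile farthest from the backfat mean. Without it 17 members were called, 11 higher and 6 lower. The part of these cells in the HOX levels was not tested.

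The third comparison set lymph against the mean of backfat, loin and tenderloin. HOXA9, HOXA7, HOXD8 and HOXA10 were far lower in lymph, HOXC10 was listed at 0 there, and HOXB3, HOXC4 and HOXD3 were not called. Of 23 members tested 20 were called, 19 lower and 1 higher. Among all 12533 genes 82.8% were called, but only 24.8% were lower and 58.0% higher, and the medians were -1.91 for the members and 0.60 for all genes. With median-ratio scaling 21 of 22 members tested were called, all lower, beside 40.8% of all genes lower and 39.7% higher.

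HOXA9, active in blood progenitors and in the limb, differed most. It had 0.14 to 0.40 TPM in lymph (median 0.18, n = 9) against at least 11.9 in backfat and 12.7 in loin, a log2 difference of -4.25 ± 0.31 (adjusted p = 3.5e-15). Only the tenderloin library of S0349 (1.23) came near. HOXC10 was listed at 0 in all 9 lymph libraries, so no fold is given for it. HOXA10 was listed at 0 in 7 of 9 and reached 0.03 TPM at most. Such values can also reflect a failed estimate.

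HOXA7 (-3.48 ± 0.16), HOXD8 (-3.47 ± 0.16), HOXA10 (-3.38 ± 0.28), HOXC9 (-2.52 ± 0.17) and HOXD9 (-2.47 ± 0.15) were lower with adjusted p from 2.6e-21 to 9.5e-14. HOXC8, HOXA4 and HOXA6 were lower by 2.28, 2.18 and 2.11 on the log2 scale. The other 9 genes called lower, 4 of them from cluster B, differed by -2.0 to -0.55. HOXB3 (-0.37 ± 0.19, adjusted p = 0.065), HOXC4 (0.10 ± 0.15, adjusted p = 0.54) and HOXD3 (-0.18 ± 0.18, adjusted p = 0.36) were not called. With median-ratio scaling HOXB3 and HOXD3 were called lower, at -0.76 and -0.56. Lymph fibroblast markers summed to 105 to 213 TPM, beside 111 to 687 in the muscles and at least 919 in backfat, and their part was not tested. HOXB7, at 0.57 to 5.69 TPM, and HOXB2, at 0.59 to 2.56, lay at muscle levels. Among lymph libraries that of S0385 was high in 5 members, listed at the end.

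HOXB8 was the member higher in lymph and in brain. It had 0.62 to 7.93 TPM in lymph (median 1.98, n = 9) and 1.07 to 6.92 in brain (median 2.94, n = 8). Backfat had 0.23 to 4.33 (median 2.08), loin 0.05 to 2.83 (median 0.26) and tenderloin 0.10 to 1.30 (median 0.23). The difference was 0.76 ± 0.21 in lymph (adjusted p = 0.0014) and 0.93 ± 0.21 in brain (adjusted p = 1.1e-04). Both lost the call with median-ratio scaling, at 0.43 (adjusted p = 0.055) and 0.33 (adjusted p = 0.15).

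The HOXB8 level was the sum of 2 transcripts with opposite patterns. The transcript of the L kidney assembly, 2473 bases long, matched the whole protein of 243 residues. It averaged 1.82 TPM in backfat, 0.28 in lymph, 0.09 in loin, 0.06 in brain and 0.04 in tenderloin. The transcript of the L brain assembly, 8502 bases long, matched residues 1 to 75 only and had no predicted peptide. It averaged 3.19 TPM in brain, 2.22 in lymph, 0.52 in backfat, 0.52 in loin and 0.27 in tenderloin. Without it HOXB8 had a mean under 1 TPM in the lymph and brain fits and was not tested, and no member was then called higher in brain or lymph. In brain and lymph most of the HOXB8 level was therefore that of the longer transcript. In animal S0384 this transcript was the highest of its tissue in brain (6.73), lymph (7.48), loin (2.77) and tenderloin (1.24), but not in backfat (0.70). That animal was singled out after its values were seen.

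**Figure D4:**
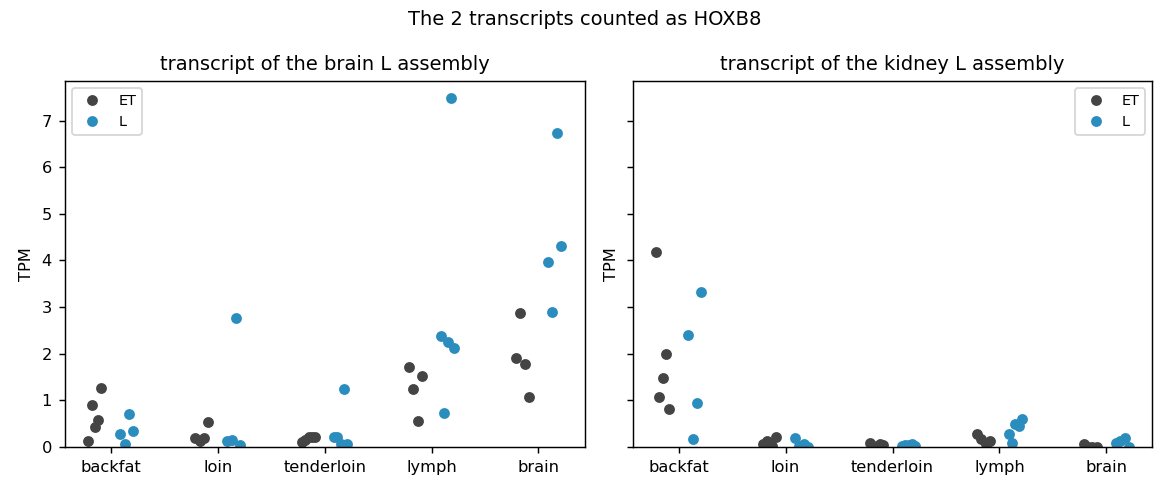
TPM of the 2 transcripts counted as HOXB8 in each library by tissue and type (ET dark, L blue). The transcript from the brain assembly is highest in brain and lymph, with 1 high L animal (S0384) in lymph, loin, tenderloin and brain, and the transcript from the kidney assembly, which spans the protein, is highest in backfat.

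The fourth comparison set brain against the mean of the other 4 tissues. All 22 members tested were called, 21 lower and HOXB8 higher. Of 13459 genes 84.7% were called, 70.1% higher and 14.7% lower, and the medians were -2.32 for the members and 0.89 for all genes. After rescaling 35.8% of all genes were higher and 40.4% lower. HOXD8 (-3.75 ± 0.15), HOXD4 (-3.60 ± 0.24), HOXA7 (-3.13 ± 0.16) and HOXD9 (-3.11 ± 0.14) differed most among the members with RNA listed in brain, with adjusted p from 8.2e-26 to 1.1e-17. The other 9 of these that were lower differed by -2.34 to -0.94. All 6 members of cluster C, and HOXA2, HOXA6, HOXA9, HOXA10, HOXB9 and HOXD10, were listed at 0 in all 8 libraries, and no fold is given for them. HOXB2 and HOXB3, which are hindbrain genes in the embryo, were above 0 in all 8, at 0.02 to 0.25 and 0.05 to 0.28 TPM.

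The last comparisons set ET against L within a tissue, the question of the series. In loin 3 of 18 members tested were called: HOXD3 and HOXD4 were higher and HOXA7 lower in ET. Of all 10508 genes 27.7% were called, 4.97% higher and 22.7% lower in ET. HOXA7 had 14.6, 16.6, 13.7 and 7.89 TPM in the ET animals S0242, S0276, S0309 and S0326, against 23.8, 32.5, 23.3 and 24.2 in the L animals S0349, S0377, S0384 and S0385. The types did not overlap, and the log2 difference was -0.96 ± 0.22 (limma adjusted p = 0.014). HOXD3 had 1.57, 2.09, 1.53 and 1.39 against 0.55, 0.77, 0.39 and 0.36 TPM, also without overlap (0.80 ± 0.16, limma adjusted p = 0.0090). It lies close to 1 TPM, where the log2(TPM + 1) scale understates a difference.

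HOXD4 had 22.5, 24.0, 29.9 and 24.3 TPM in the ET loin libraries and 21.9, 13.1, 16.0 and 9.78 in the L ones. The difference was 0.74 ± 0.22 (limma adjusted p = 0.033) with S0349 just under the ET range. The HOXD3 transcript holds a part of HOXD4, so both are not independent. The HOXD4 call was lost when any of S0242, S0276, S0309, S0326, S0377 and S0385 was left out (limma adjusted p of 0.051 to 0.087). With S0276 left out HOXD3 fell under the limit on mean TPM, and only HOXA7 was still called. With the loin library of S0235 put back, HOXA7 and HOXD3 kept their calls and HOXD4 had 0.57 (limma adjusted p = 0.10). With the loin libraries of both S0235 and S0355 put back under their labels none of the 3 was called (limma adjusted p of 0.19 for HOXA7, 0.89 for HOXD3 and 0.69 for HOXD4). The loin library of S0235 had 14.4 TPM of HOXA7 and 1.74 of HOXD3, inside the ET range, but 13.6 of HOXD4, inside the L range. Fibroblast markers summed to 140 to 687 TPM in the ET loin libraries and 111 to 205 in the L ones, and their part in the difference was not tested.

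**Figure D5:**
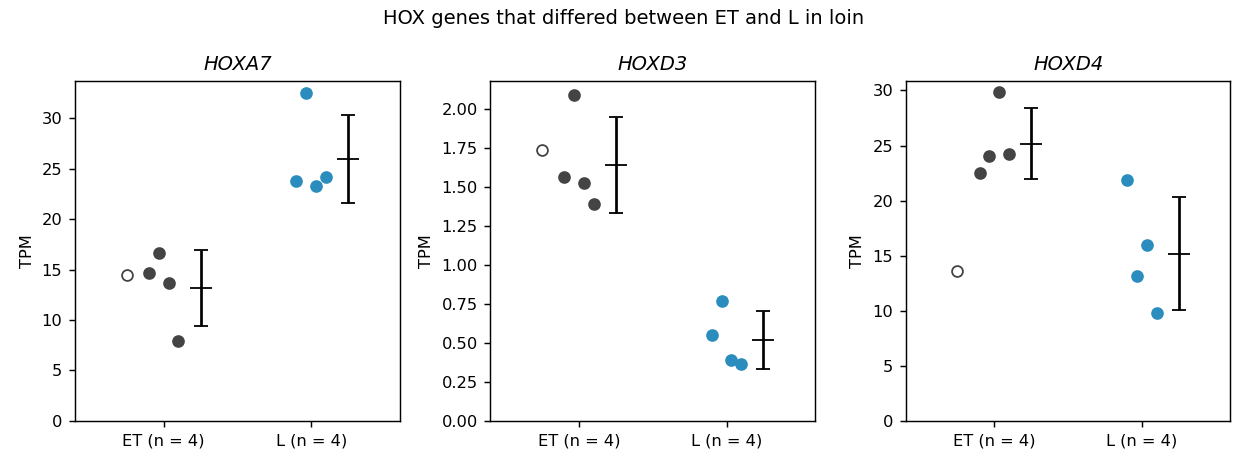
TPM of the 3 HOX genes called between ET and L in loin. Filled points are libraries (4 of each type), bars the mean ± SD, and the open point the loin library of S0235, which was not tested. HOXA7 and HOXD3 do not overlap between the types, and HOXD4 separates them by a narrow gap.

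In backfat, tenderloin and lymph no member was called between the types, and brain was not tested. In backfat 0 of 23 passed limma's test, against 8.57% of all genes (7.53% higher and 1.04% lower in ET). An unadjusted p under 0.05 was reached by 5 of the 23 and by 3211 of all 12110 genes. The largest difference there was HOXD4, with 24.8, 33.7, 42.2, 39.3 and 29.4 TPM in ET (S0235, S0242, S0276, S0309 and S0326) and 24.2, 1.98, 8.51 and 20.2 in L (S0349, S0377, S0384 and S0385). The types did not overlap, and the log2 difference was 1.63 ± 0.53 (limma adjusted p = 0.079). Leaving out S0349 brought it to 2.02 (limma adjusted p = 0.043). HOXD3 differed by 1.02 ± 0.34 (limma adjusted p = 0.085) in the same direction. In the backfat of ET animals fibroblast markers summed to 6203 to 23189 TPM, against 919 to 3580 in L animals, and adipocyte markers to 7939 to 17711 against 478 to 7361, so the cell content moved with the type. Its part was not tested.

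In tenderloin 0 of 19 members passed, against 1.63% of all genes (1.40% higher and 0.230% lower in ET). An unadjusted p under 0.05 was reached by 3 of the 19 and by 2208 of all 10851 genes. The largest differences were HOXC10 (1.25 ± 0.78, limma adjusted p = 0.40) and HOXC11 (1.06 ± 0.47, limma adjusted p = 0.23), both of which hold the low L library of S0349. Fibroblast markers summed to 427 to 588 TPM in ET tenderloin and 155 to 191 in L tenderloin, and their part was not tested. HOXA7, called in loin, differed here by -0.19 ± 0.32 (limma adjusted p = 0.78). In lymph 0 of 11 members and 0% of all genes passed, with 1 member and 525 genes at an unadjusted p under 0.05. Whether the type difference itself changed between loin and tenderloin was tested with an interaction term. For 0 of 19 members this passed (0.808% of all genes were called, 0.0650% higher and 0.743% lower). An unadjusted p under 0.05 was reached by 4 of the 19 and by 2343 of all 10764 genes. HOXD1 came closest (-1.23 ± 0.40, limma adjusted p = 0.10), and it passed with the animal as a block (-1.32, limma adjusted p = 0.042). Its ET levels in loin were 10.7, 12.2, 12.9 and 7.80 TPM and its L levels 16.3, 23.3, 15.2 and 11.8, whereas in tenderloin ET had 1.6 to 4.11 and L 0.315 to 3.01.

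Genes that act with or on HOX genes were followed in 4 lists. Median-ratio scaling moved the median of all genes in the backfat, lymph and brain comparisons from 0.63, 0.60 and 0.89 to -0.04, -0.03 and -0.06, so the counts under it are given beside the first ones, each with the share of all genes called. HOX proteins bind DNA with the cofactors of the PBX, MEIS and PKNOX families, of which 7 of 9 genes were found. Between loin and tenderloin 3 of 7 were called higher and 1 lower (all genes 19.9% and 16.2%), among them PBX3 (1.42 ± 0.29, adjusted p = 9.5e-04), PBX2 (0.42) and MEIS3 (-0.46). In backfat 6 of 7 were higher than in the muscles and 1 lower (all genes 58.9% and 20.5%), or 3 and 1 after rescaling (37.6% and 40.1%). PKNOX2 was the lower one (-1.81 ± 0.16), and MEIS3 stood highest (2.81 ± 0.18). In lymph 2 were higher and 2 lower (all genes 58.0% and 24.8%), or 1 and 3 after rescaling (39.7% and 40.8%). In brain all 7 were called higher, with a median of 1.95 (0.89 over all genes, 70.1% of which were higher), and 6 after rescaling (35.8% of all genes), with MEIS3 at 3.85 ± 0.17 and MEIS2 at 2.28 ± 0.20. Between ET and L in loin, where 4.97% of all genes were higher and 22.7% lower, PBX3 was higher (2.25 ± 0.42, adjusted p = 0.0066), and PKNOX1 (-0.73) and PBX2 (-0.56) were lower, both without a call after rescaling.

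Polycomb complexes keep silent HOX genes closed, and all 27 genes of that list were found. In lymph 25 of 27 tested were called higher than in backfat and muscle and none lower, with a median of 1.31, beside 58.0% and 24.8% of all genes and their median of 0.60. After rescaling 18 were higher and 3 lower, beside 39.7% and 40.8% of all genes. EZH2, the methyltransferase that is abundant in dividing cells, averaged 28.3 TPM in lymph, 4.84 in backfat, 4.28 in brain, 0.86 in tenderloin and 0.72 in loin (3.42 ± 0.16). SUZ12 differed by 2.81 ± 0.17 and MTF2 by 2.25 ± 0.11. In brain 24 of 27 were called higher and none lower (all genes 70.1% and 14.7%), or 17 and 5 after rescaling (35.8% and 40.4%), with PHF19 at 3.16 and CBX6 at 3.12. In backfat 20 of 26 were higher than in the muscles and 1 lower (all genes 58.9% and 20.5%), or 11 and 5 after rescaling (37.6% and 40.1%), with RNF2 at 2.17, PHC2 at 1.54 and PHC1 at 1.33. Between loin and tenderloin 5 of 23 were higher and 2 lower (all genes 19.9% and 16.2%), with PCGF5 (0.66) and CBX7 (0.93) higher and RNF2 (-0.49) lower. CBX7 was lower in ET than in L loin (-1.28 ± 0.21, adjusted p = 0.0043), as was RING1 (-0.61), which lost the call after rescaling.

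The opposing Trithorax group and the H3K27 demethylases, which keep active genes open, had 10 of 12 genes found. Loin was higher than tenderloin for 3 of 10, beside 19.9% of all genes (ASH1L at 0.58, RBBP5 at 0.38 and DPY30 at 0.35). In the wider tissue comparisons the direction of this list turned with the scaling. Backfat had 4 higher and 2 lower than the muscles (all genes 58.9% and 20.5%), against 0 and 8 after rescaling (37.6% and 40.1%). Lymph had 5 higher and 0 lower (58.0% and 24.8%), against 4 and 6 (39.7% and 40.8%), with KMT2A at 1.88 and RBBP5 at 1.52 in the first fit. Brain had 9 higher and 0 lower (70.1% and 14.7%), against 1 and 3 (35.8% and 40.4%), with KDM6B at 1.96. In ET loin 5 of 10 were lower than in L loin, beside 22.7% of all genes, with KDM6B at -1.06 and ASH1L at -0.75, and the median was -0.56 beside -0.25 over all genes, whereas after rescaling 2 were lower, 1 was higher (all genes 10.8% and 8.52%) and ASH1L lost the call.

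Of the retinoic acid and CDX inputs that act on HOX genes in the embryo, 10 of 15 were found, and CDX1, CDX2 and CDX4 were not among them. In backfat 8 of 9 were higher than in the muscles (58.9% of all genes), or 7 after rescaling (37.6%), including the retinoic acid enzymes ALDH1A2 (3.86 ± 0.28) and ALDH1A1 (3.08 ± 0.23) and the receptor RARA (2.10 ± 0.12). In lymph 4 were higher and 3 lower (all genes 58.0% and 24.8%), or 3 and 4 after rescaling (39.7% and 40.8%), with the receptors RARB at 1.73, RARG at 1.6 and RARA at 1.15. In brain 7 of 10 were higher and none lower (all genes 70.1% and 14.7%), or 5 and 2 after rescaling (35.8% and 40.4%), with the binding protein CRABP1 at 6.14. Between loin and tenderloin CRABP2 was higher (1.37), and RARG (-0.43) and ALDH1A1 (-0.71) were among 3 lower, beside 19.9% of all genes higher and 16.2% lower. ALDH1A1 (1.14), ALDH1A3 (0.93) and RARG (0.75) were higher in ET loin, and RARG (0.90) and ALDH1A3 (1.23) in ET tenderloin.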

How the data were processed

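Total RNA of 50 libraries was isolated by the TRIzol method and sequenced as strand-specific mRNA libraries, per the labels' protocols. The authors deposited TPM of 57085 assembled transcripts. Trimmomatic 0.36, Salmon 1.10.0 and the build Sscrofa11.1 are named in the submitters' processing notes. The role of that build and the read depth are not stated there. Transcripts were assigned to genes by their deposited best BLASTX match to Swiss-Prot (E value at most 1e-10), with the species ignored. TPM were then summed per entry over 32155 transcripts. The other 24930 had no such match, or one to a transposon or retrovirus protein or a non-animal protein, and were not used. Transcript and peptide sequences are not used here.

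Tests used limma 3.58.1 (R 4.3.3, two-sided) with an intensity trend on log2(TPM + 1). A gene was tested where its TPM averaged 1 or more in the fitted libraries. P-values were adjusted by Benjamini-Hochberg across those genes, and calls were made at an adjusted p under 0.05. Tissue contrasts carried the type as a term. Differences are log2 ± SE on that scale, which understates low genes. The fits were tested on simulated data. Every called member is named, or the 10 with the largest differences, with the 5 most abundant per tissue and up to 3 called genes per list. Some genes that meet these rules are not reported here.

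The members, lists and comparisons were chosen with earlier results of these data known. Animal numbers pair libraries, since the same animals gave all tissues. For loin and tenderloin of 1 animal, deviations from group means had a median correlation of 0.45 across genes (0.37 to 0.56, 8 pairs), and for those of different animals of -0.04 (72 pairs). The main fits over several tissues carried no animal term. Their p-values measure the spread between libraries, with those of 1 animal treated as independent, and the animal block was an alternative. In tests of type within 1 tissue each library is 1 animal, and p-values measure the spread between animals.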

Additional observations from a re-analysis of the deposited data

Results flagged for a closer look

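Within a group of 4 or 5 animals, 30 of 208 sets of values (a HOX gene, a cluster sum or the HOX total in 1 tissue and type, where the highest library reached at least 1 TPM) held 1 library whose gap to the others took up most of the range. The limit on the gap flags about 1 in 20 sets where values are normally distributed and sets are independent. TPM need not be so distributed, and the sets here share libraries. The share of 14.4% therefore does not show an excess over chance. The values are TPM, and none of them was used to leave out a library.

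The tenderloin library of S0349 held 7 of them, all high among the L animals: HOXA4 at 17.2 (others at most 7.51), HOXB2 at 3.27 (1.41), HOXB3 at 6.54 (1.68), HOXB4 at 4.71 (0.987), HOXB5 at 3.01 (0.114), HOXC4 at 2.80 (0.608) and HOXC6 at 11.5 (2.04). The lymph library of S0385 held 6, also high among the L animals: HOXA2 at 1.01 (others at most 0.152), HOXA3 at 1.67 (0.497), HOXA4 at 1.94 (0.523), HOXD8 at 2.77 (1.32), HOXD9 at 4.42 (1.49) and the sum of cluster A at 7.84 (3.26). Animal S0384 stood out for HOXB8 in 3 tissues, with 7.93 in lymph (others at most 2.76), 2.83 in loin (0.337) and 1.30 in tenderloin (0.269). In these 3 tissues its HOXB8 came mainly from the transcript of the brain assembly.

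The other flags were spread over animals. In backfat, ET animal S0309 was high for HOXC4 (4.82), HOXC8 (7.89) and HOXC11 (1.63), ET animal S0235 was high for HOXB8 (4.33), and L animal S0385 was low for HOXC6 (3.76, others at least 7.18). In loin, ET animal S0276 was high for HOXC9 (40.8, others at most 24.7), L animal S0377 was high for HOXA7 (32.5, others at most 24.2) and HOXD10 (1.56), and L animal S0385 was low for the sum of cluster A (50.6, others at least 62.9). In lymph, L animal S0377 was high for HOXB9 (1.60, others at most 0.624). In tenderloin, ET animal S0326 was low for HOXA7 (7.12, others at least 14.8), S0242 high for HOXB2 (2.03), S0309 high for HOXC6 (2.69), and L animal S0355 high for HOXD3 (1.95, others at most 0.854).

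Of the libraries that no test used, that of S0235 lymph had all 28 members above every used lymph library. The loin library of S0355 had 16 members above every used loin library, the loin library of S0235 had 9, the brain library of S0355 had 6, and the backfat library of S0355 and the brain library of S0235 had 5 each. For none of these libraries was the share of all genes above the used ones counted.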

How the results depend on the processing

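With the animal as a replicate block, 11 members were called between loin and tenderloin (8 higher, 3 lower) against 9 without it, and the difference of the type effect between these muscles gave 1 call against 0 (HOXD1, -1.32). The numbers called in backfat (15), lymph (20) and brain (22) were those of the fit without the block. With all libraries under their labels 0 members were called between ET and L in loin, where leaving out 1 animal gave 1 to 3 calls. In backfat leaving out 1 animal gave 0 to 1 calls between the types, the 1 being HOXD4 without S0349. Median-ratio scaling turned HOXA4 to -0.62 and HOXC9 to -0.59 in backfat and RBBP5, a Trithorax group gene, to -0.091 in brain. The cause of these changes was not tested. Calls held in every alternative for 7 of 9 members between loin and tenderloin, 14 of 15 in backfat, 15 of 20 in lymph, 21 of 22 in brain and 0 of 3 between ET and L in loin. With all libraries under their labels, 1630 genes rather than 3884 were called between loin and tenderloin and 721 rather than 2910 between ET and L in loin, 7 and 16 members were called in the muscle and lymph comparisons, and 46 of 140 tissue means moved by more than 1 SD. At a mean of at least 0.5 TPM in place of 1, the members counted were 26 in backfat, 22 in loin, 22 in tenderloin, 16 in lymph and 1 in brain. The fits without the tenderloin library of S0349, without the backfat library of S0377, without transcripts of a second HOX gene and without HOX transcripts that lack a HOX peptide were chosen after seeing the data. A member under the limit on mean TPM in an alternative has no value there. Read depth is unknown, so a level listed at 0 has no floor.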

Other observations

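The libraries kept out of the tests have the following HOX values. The library labelled backfat of L animal S0355 lay nearest to the mean HOX profile of loin (a mean absolute difference of 0.28 on log2(TPM + 1)). It had 22.0 TPM of HOXC8, 37.8 of HOXC10, 52.6 of HOXD8 and 2.27 of HOXB7, with 38434 TPM of muscle markers and 84.6 of adipocyte markers. The library labelled loin of the same animal lay nearest to backfat (0.62). It had 54.1 TPM of HOXB7, 13.1 of HOXB2, 3.48 of HOXC8 and 1.46 of HOXC10, with 12399 TPM of adipocyte markers and 20.2 of muscle markers.

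The library labelled lymph of ET animal S0235 had 690.6 TPM of HOX RNA in all, with 28 of 28 members at 1 TPM or more. HOXD4 (76.9), HOXD9 (66.2), HOXB7 (65.6), HOXD8 (58.3), HOXA10 (56.9) and HOXA9 (56.3) led there. It held 2308 TPM of the kidney markers and 75.0 of the lymph node markers, whereas the 9 used lymph libraries held at most 5.14 of the kidney set.

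The 2 libraries labelled brain that held brain markers, those of S0235 and S0355, had HOXD1 at 6.68 and 7.52 TPM. The 8 used libraries of that label had at most 0.08. HOXB8 was at 0.39 and 2.13 TPM in these 2 libraries.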
